A study of Mus musculus with 9 samples.

Results

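The adipocyte lineage genes described here were 10 genes chosen by symbol from the count table of mouse ST2 cells: the regulators *Pparg*, *Cebpa*, *Cebpb*, *Cebpd* and *Zfp423*, and the lipid-handling and secreted products *Fabp4*, *Lpl*, *Cd36*, *Plin2* and *Adipoq*. All 10 were found among the 54532 genes of the table, each under a single identifier, and 8 of them had enough reads to be among the 14004 genes tested. *Cd36* and *Adipoq* did not, and their counts are given without a test. The study asked how protein O-GlcNAcylation, the attachment of N-acetylglucosamine to proteins by the enzyme OGT, takes part in the response of bone-forming precursors to Wnt3a. Wild-type ST2 cells, a stromal line from mouse bone marrow, were kept for 72 h with vehicle, with recombinant human Wnt3a (rhWnt3a) at 50 ng/ml, or with rhWnt3a and the OGT inhibitor OSMI at 20 µM, with 3 libraries in each group. The third group is called rhWnt3a with OSMI after the sample titles, whereas its treatment label names OSMI alone and gives no rhWnt3a dose. Without a group that received OSMI alone, an effect of OSMI by itself and an effect of OSMI on the response to rhWnt3a cannot be told apart. All the libraries came from 1 cell line, and the labels do not say whether replicates were separate cultures, so p-values measure only the spread between these libraries.

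Marrow stromal cells can become bone cells or fat cells, and Wnt signaling through β-catenin is known to favor bone and to hold back the fat-cell program. In that program C/EBPβ and C/EBPδ, the products of *Cebpb* and *Cebpd*, act early and induce PPARγ and C/EBPα, which then maintain each other and switch on genes of lipid uptake and storage. *Zfp423* encodes a zinc-finger factor that marks committed preadipocytes and raises *Pparg*, while *Adipoq* encodes adiponectin, a hormone of mature fat cells.

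*Pparg* lies on the forward strand of chromosome 6 (GRCm38, 115360951 to 115490399) and is transcribed from more than 1 start. The most downstream of the 3 starts listed in RefSeq is shown because C/EBP factors are known regulators of this gene, and the upstream start of *Zfp423* (reverse strand of chromosome 8, 87661810 to 87959595) is shown because it was the only other member window with a C/EBP match. Each line gives the 250 bases before the start, 5′ to 3′ on the gene's strand, from RefSeq on GRCm38.p6, with matches to TTGCNNAA on either strand in capitals. Neither window overlapped an exon in GENCODE M21.
Pparg, chr6:115421816-115422065, forward strand: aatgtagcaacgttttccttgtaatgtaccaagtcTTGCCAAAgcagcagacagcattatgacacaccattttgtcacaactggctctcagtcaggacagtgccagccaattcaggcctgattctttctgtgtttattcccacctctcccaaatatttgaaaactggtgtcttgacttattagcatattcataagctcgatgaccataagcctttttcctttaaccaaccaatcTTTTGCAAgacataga
Zfp423, chr8:87959596-87959845, reverse strand: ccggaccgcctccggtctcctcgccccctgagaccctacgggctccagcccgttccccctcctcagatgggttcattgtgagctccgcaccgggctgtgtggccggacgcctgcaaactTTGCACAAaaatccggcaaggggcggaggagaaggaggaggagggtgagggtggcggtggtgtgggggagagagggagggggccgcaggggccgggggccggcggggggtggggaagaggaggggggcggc
The *Pparg* window held a match from -215 to -208 and another, on the reverse strand, from -16 to -9, counted from the start, and the *Zfp423* window held 1 from -131 to -124. Such a match occurred in 9.56% of the 32851 promoter windows of this length, so it is a common string. Promoter entries were found for 7 of the 10 genes in 10 windows, while *Cebpd*, *Fabp4* and *Lpl* had no entry. The letters CTTTGAT, a form of the motif of TCF/LEF, the DNA-binding partners of β-catenin, were in 3.21% of all windows and in no member window. The counts are per gene, so transcripts from different starts of *Pparg* or *Zfp423* cannot be told apart.

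The libraries held 16135898 to 17583945 counts, at which 3 counts correspond to 0.169 to 0.191 CPM, the usual unit of reads per gene scaled to a common library size (TMM-scaled totals). In each group 1 library stood apart from the others over all tested genes: vehicle 3, rhWnt3a 2 and rhWnt3a with OSMI 3, whose mean squared log2 difference from their group was 0.423, 0.392 and 0.439 against 0.117, 0.111 and 0.119 between the remaining pairs. The first axis of the deviations from group means held 54.8% of their variance and placed vehicle 3, rhWnt3a 2 and both rhWnt3a with OSMI 1 and 2 on a side, called B, and the remaining 5 libraries on the other, called A. Results are therefore also given without the 3 libraries and within the sides. The 3 libraries were picked from these same counts as the farthest of their group. Leaving them out lowers the spread, so p-values of that fit are too small. Leaving out the 3 libraries leaves vehicle and rhWnt3a on side A and rhWnt3a with OSMI on side B, so in that fit side and OSMI cannot be told apart, whereas rhWnt3a against vehicle is then within side A. Within-side ratios rest on 2 vehicle, 2 rhWnt3a and 1 OSMI library in A and on 1, 1 and 2 in B, so at least 1 arm of each ratio has a single library except for rhWnt3a against vehicle in A, and they are descriptions without a test. Of the markers of mature adipocytes, *Plin1*, *Lep*, *Cfd* and *Cidec* had at most 1 count in any library and *Adipoq* at most 3, while *Fabp4*, the remaining marker of that list, was present. The line carried stromal markers at a summed 8715 to 25490 CPM. Of the 10 macrophage markers, *Ptprc*, *Adgre1*, *Itgam* and *Tyrobp* had at most 2 counts, but 4 others were tested. The whole macrophage list summed to 24.4 to 26.7 CPM with vehicle. Of the 10 endothelial markers, *Cdh5* and *Kdr* had at most 1 count, but 1 other, *Emcn*, was tested. That list summed to 2.09 to 2.99 CPM with vehicle. In bulk RNA, fewer cells expressing a gene and less RNA per cell cannot be told apart.

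In vehicle-treated cells the early factors were the most abundant of the regulators. On the deposited FPKM scale, which corrects for gene length and so permits comparison between genes, *Cebpb* averaged 187 ± 75.8 (SD, n = 3), *Plin2* 104 ± 32.4 and *Cebpd* 46.4 ± 19.8, with the lowest *Cebpb* library (142) just above the highest of *Plin2* (141). *Cebpa* at 9.67 ± 1.77 and *Pparg* at 8.03 ± 0.79 FPKM overlapped in their libraries, followed by *Fabp4* at 5.01 ± 0.45 and *Zfp423* at 2.84 ± 0.83. *Lpl* was near the floor at 0.10 ± 0.05 FPKM. The level of *Fabp4* is understated on this scale, because its table length of 4489 bases equals the whole span of the gene, through a retained-intron transcript, while its coding transcript has 896. For *Lpl* the table length is 10478 bases against 4115 of coding transcript. It is 3512 against 1888 in the longest coding transcript for *Plin2*, and 2953 against 2125 for *Pparg*. For *Cebpb* both are 1504, and for *Cebpa* they are 2636 and 2626. The order of *Cebpb* and *Plin2*, and that of *Cebpa* and *Pparg*, therefore depends on the gene length used. So does the place of *Fabp4* below *Cebpa* and *Pparg*. Of the summed FPKM of the 3 C/EBP genes, *Cebpb* made up 76.0 to 77.2%, *Cebpd* 18.4 to 19.5% and *Cebpa* 3.26 to 4.98% in the vehicle libraries.

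With rhWnt3a, *Pparg*, *Fabp4* and *Lpl* fell, and no member rose. *Pparg* fell 3.32-fold and *Fabp4* 5.60-fold, whereas *Cebpa*, the partner of PPARγ in the same program, had a log2 fold change whose 95% interval ran from -0.35 to 0.42. *Cebpb* and *Cebpd* were lower on average without passing the edgeR test, though both passed at an unadjusted p and *Cebpd* in DESeq2 (adjusted p = 0.0432). *Plin2* and *Zfp423* passed in none of these, so no member rose under any of them. The 3 of 8 tested members that fell compare with 5.86% of all 14004 tested genes that fell, 2.92% that rose and 8.78% called in either direction, where called means an adjusted p under 0.05 in edgeR's quasi-likelihood test and a log2 fold change beyond 0.5. The libraries of the groups did not overlap for 4 of the 8, all lower with rhWnt3a, against 14.2% of tested genes lower in this way. Both counts include *Lpl*, which passed the count filter only through its vehicle libraries. A fall was thus favored in advance for *Lpl*, and it adds no support to these counts. With 3 libraries against 3, the smallest p of an exact permutation test is 0.1, so each call rests on a spread estimated across genes.

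**Figure D1:**
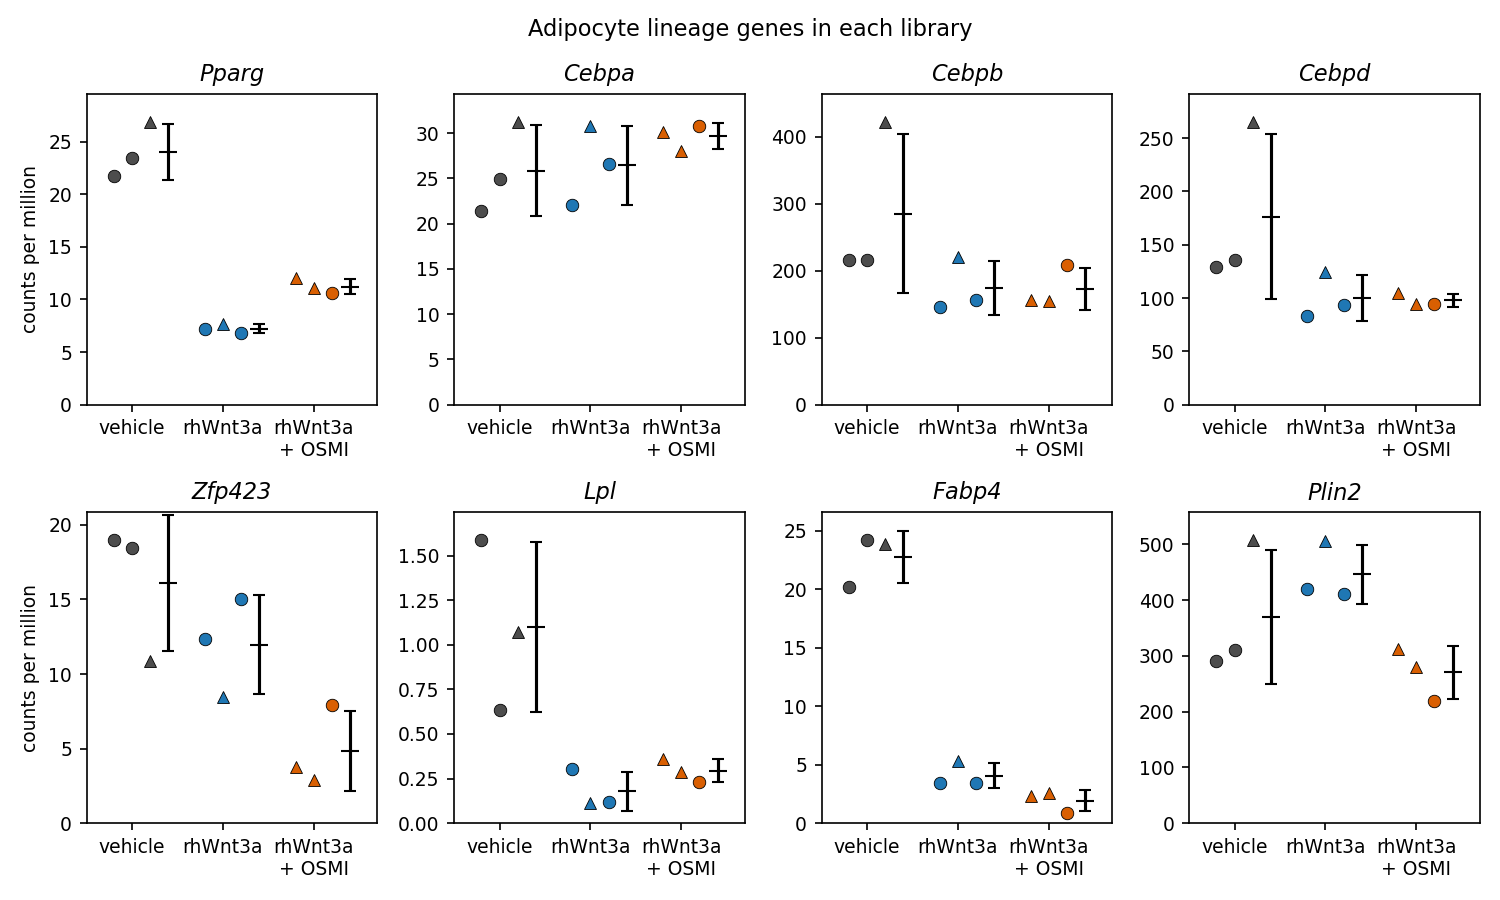
Normalized counts (CPM) of the 8 tested genes in each of the 9 libraries (points, replicates 1 to 3 from left to right; circles side A, triangles side B of the first axis of spread between replicates), with mean ± SD of 3 libraries at the right of each group; y axes start at 0 and differ between genes. *Pparg* falls from 24.0 to 7.24 and stands at 11.2 with OSMI, without overlap between the 3 groups, whereas *Cebpa* overlaps between all groups.

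*Pparg* had 21.7, 23.4 and 26.9 CPM in the vehicle libraries and 7.23, 7.67 and 6.81 with rhWnt3a. Every rhWnt3a library was thus below every vehicle library by a wide margin, and the replicates of a group lay close together. The edgeR log2 fold change was -1.73 ± 0.14 (SE, adjusted p = 8.8e-05), and it was -1.72 without the 3 libraries that stood apart and -1.68 and -1.81 within sides A and B. The call was kept in all 19 alternative settings, with log2 fold changes from -1.80 to -1.64, though a call cannot be lost at an unadjusted p.

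*Cebpa* had 21.3, 24.9 and 31.2 CPM with vehicle and 22.1, 30.7 and 26.5 with rhWnt3a. The groups overlapped fully, with a log2 fold change of 0.03 ± 0.17 (adjusted p = 0.952). In both groups the library that stood apart was the highest, by 1.35-fold over the others with vehicle and 1.26-fold with rhWnt3a.

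*Cebpb* had 216, 217 and 422 CPM with vehicle and 146, 221 and 157 with rhWnt3a, and *Cebpd* had 129, 135 and 265 against 83.1, 124 and 93.3. Vehicle 3 carried about the same excess for both genes, 1.95-fold and 2.01-fold over the other vehicle libraries. The groups overlapped for *Cebpb* through rhWnt3a 2, and did not for *Cebpd*. Log2 fold changes were -0.71 ± 0.28 for *Cebpb* (adjusted p = 0.184) and -0.82 ± 0.27 for *Cebpd* (adjusted p = 0.105). Without the 3 libraries that stood apart they were smaller but called, at -0.55 and -0.62 (edgeR adjusted p = 1.11e-06 and 2.13e-06), with adjusted p over all alternatives from 1.11e-06 to 0.484 and from 2.13e-06 to 0.348. Those libraries were picked from the same counts, so the p-values without them, and the low ends of these ranges, are too small. Within sides A and B the log2 ratios of means were -0.52 and -0.93 for *Cebpb* and -0.58 and -1.10 for *Cebpd*. The part of the side in these values was not tested. The strand setting of the counting is not given in the sources used here. On the opposite strand, *Tmem189* (242 to 343 counts) overlaps 20.74% of the exon of *Cebpb*, and *Spidr* (397 to 576 counts) overlaps 15% of that of *Cebpd*. The effect of these overlaps on the counts of *Cebpb* and *Cebpd* was not tested.

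The share of *Cebpa* in the summed FPKM of the 3 C/EBP genes was 6.08 to 7.24% with rhWnt3a, above every vehicle library, while *Cebpb* held 74.8 to 76.6% and *Cebpd* 17.3 to 17.9%. *Zfp423* had 19.0, 18.5 and 10.8 CPM with vehicle and 12.3, 8.46 and 15.1 with rhWnt3a, so that the groups overlapped. Its log2 fold change was -0.43 ± 0.37 (edgeR adjusted p = 0.631), with a 95% interval from -1.25 to 0.39. In vehicle and rhWnt3a alike, the library that stood apart was the lowest, at 0.58 and 0.62 of the others.

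Among the lipid genes, *Fabp4*, which encodes a fatty acid carrier of the cytoplasm and is a classical PPARγ target, had 20.2, 24.2 and 23.9 CPM with vehicle and 3.40, 5.28 and 3.47 with rhWnt3a. The lowest vehicle library was well above the highest rhWnt3a library. This was a log2 fold change of -2.49 ± 0.32 (edgeR adjusted p = 0.000972), -2.72 without the libraries that stood apart, and -2.69 and -2.18 within sides A and B, and the call was kept in all 19 alternatives.

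*Lpl*, which encodes the lipase that frees fatty acids from circulating triglycerides, had only 26, 10 and 19 counts with vehicle and 5, 2 and 2 with rhWnt3a. The groups did not overlap, but 2 of the rhWnt3a libraries were under the floor of 3 counts. The log2 fold change of -2.58 ± 0.53 passed the edgeR test (adjusted p = 0.0131). It was -2.23 without vehicle 1 and -2.37 without rhWnt3a 3, and neither passed (adjusted p = 0.0609 and 0.0736), within a range over all alternatives from 0.00448 to 0.0736. Of its longest transcript, 5.61% was at least 97% identical to stretches of 6 other genes, whereas no such copy was found for the other members.

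*Plin2*, which encodes a lipid droplet coat protein of many cell types, had 291, 311 and 507 CPM with vehicle and 421, 507 and 411 with rhWnt3a. Vehicle 3 and rhWnt3a 2 reached nearly the same level, and the groups overlapped. The log2 fold change was 0.27 ± 0.23 (edgeR adjusted p = 0.624), and within the sides it was 0.47 for A and -0.00 for B. *Cd36*, the gene of a fatty acid translocase, had 1, 0 and 1 counts with vehicle and 0 in each rhWnt3a library, and *Adipoq* had 0 in all 6. No fold can be given for either, since both groups were under the floor.

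**Figure D2:**
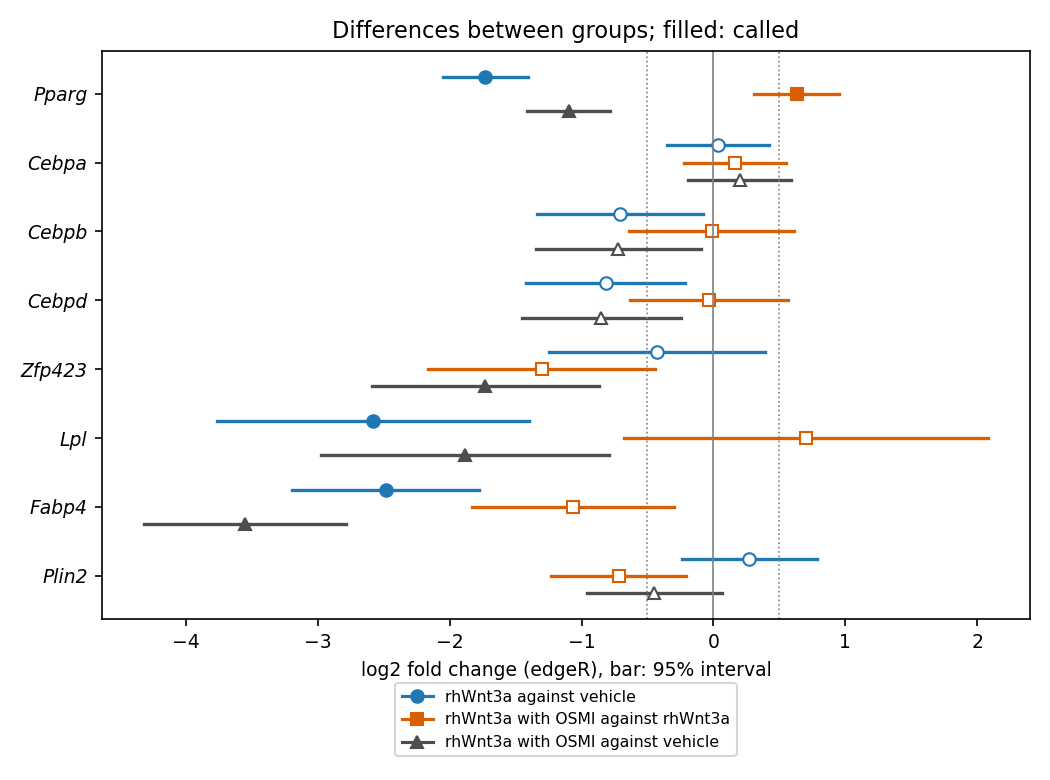
Log2 fold change of each tested gene in the 3 comparisons from the edgeR fit of all 9 libraries (points) with 95% intervals (bars); filled points passed the test and dotted lines mark 0.5 in either direction. Against vehicle, *Pparg*, *Fabp4* and *Lpl* lie left of zero with both treatments, and *Pparg* is the only gene with a filled point to the right, at 0.63 for rhWnt3a with OSMI against rhWnt3a.

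With OSMI added to rhWnt3a, *Pparg* rose 1.55-fold over rhWnt3a alone, and no member fell by the test. *Zfp423*, *Fabp4* and *Plin2* were lower in each OSMI-treated library than in the lowest rhWnt3a library, by 2.46-fold, 2.09-fold and 1.65-fold on average, but none of them passed in edgeR, while DESeq2 called all of them (adjusted p = 0.0194, 0.0266 and 0.0324), as did an unadjusted p in edgeR. *Cebpa*, *Cebpb* and *Cebpd* showed log2 fold changes near 0. The 1 of 8 members that rose compares with 1.69% of tested genes that rose, 3.05% that fell and 4.74% called in either direction. Non-overlapping groups were found for 3 members lower and 1 higher with OSMI, against 17% and 16.7% of tested genes.

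*Pparg* had 12.0, 11.1 and 10.6 CPM with rhWnt3a and OSMI, each between the levels of rhWnt3a alone and of vehicle. The log2 fold change against rhWnt3a was 0.63 ± 0.14 (edgeR adjusted p = 0.0374), 0.59 within each side, and 0.71 without the libraries that stood apart, where side and OSMI cannot be told apart. Its direction was kept in all 19 alternatives, from 0.58 to 0.71, but the call in 9 of them, with adjusted p from 0.00087 to 0.144. Leaving out vehicle 2, rhWnt3a 1, rhWnt3a 2 or rhWnt3a 3 gave 0.65, 0.64, 0.70 and 0.59 (adjusted p = 0.0724, 0.112, 0.0751 and 0.144). Leaving out rhWnt3a with OSMI 1 or 2 gave 0.61 and 0.67 (adjusted p = 0.112 and 0.0916).

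*Zfp423* had 3.74, 2.87 and 7.92 CPM with OSMI, the last being the library that stood apart, at 2.40-fold the others. All were under the lowest rhWnt3a library at 8.46. In the fit this gave a log2 fold change of -1.30 ± 0.39 (edgeR adjusted p = 0.0865). Without rhWnt3a with OSMI 3 it was -1.85 and passed (adjusted p = 0.016), with a range over the alternatives from 3.92e-08 to 0.224. Without all 3 libraries that stood apart it was -2.06, a value in which side and OSMI cannot be told apart, and within sides A and B the log2 ratios were smaller, -0.79 and -1.36.

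*Fabp4* had 2.36, 2.58 and 0.87 CPM with OSMI, from 39, 45 and 15 counts. The lowest was again the library that stood apart, at 0.35 of the others. The log2 fold change was -1.06 ± 0.34 (edgeR adjusted p = 0.109), and -1.98 and -1.10 within sides A and B. Without the libraries that stood apart, where side and OSMI cannot be told apart, it was -0.48, and the adjusted p ran from 0.00361 to 0.31 over the alternatives.

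*Plin2* had 313, 280 and 220 CPM with OSMI, the last from the library that stood apart. Its log2 fold change was -0.72 ± 0.23 (edgeR adjusted p = 0.107), -0.92 and -0.77 within sides A and B, and -0.49 without the libraries that stood apart, where side and OSMI cannot be told apart. Without vehicle 3, which enters only through the shared estimate of spread, it was -0.72 and passed (adjusted p = 0.0395, with a range from 1.98e-05 to 0.286 over the alternatives).

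*Cebpa* had 30.1, 28.0 and 30.8 CPM with OSMI, *Cebpb* 156, 154 and 209, and *Cebpd* 105, 94.2 and 94.8. Their log2 fold changes against rhWnt3a were 0.16 (95% interval -0.22 to 0.55), -0.01 (-0.64 to 0.61) and -0.03 (-0.63 to 0.57), and these intervals do not exclude changes of the size that counts as a call. For *Cebpb* the log2 ratio was 0.47 in A (1 OSMI library against 2) and -0.51 in B (2 against 1), and with a single library in an arm the difference in sign was not tested. *Lpl* had 6, 5 and 4 counts, against 5, 2 and 2, and a log2 fold change of 0.70 ± 0.62 (edgeR adjusted p = 0.513). *Cd36* had 3, 2 and 1 counts and *Adipoq* 0, 0 and 3, all at or under the floor.

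**Figure D3:**
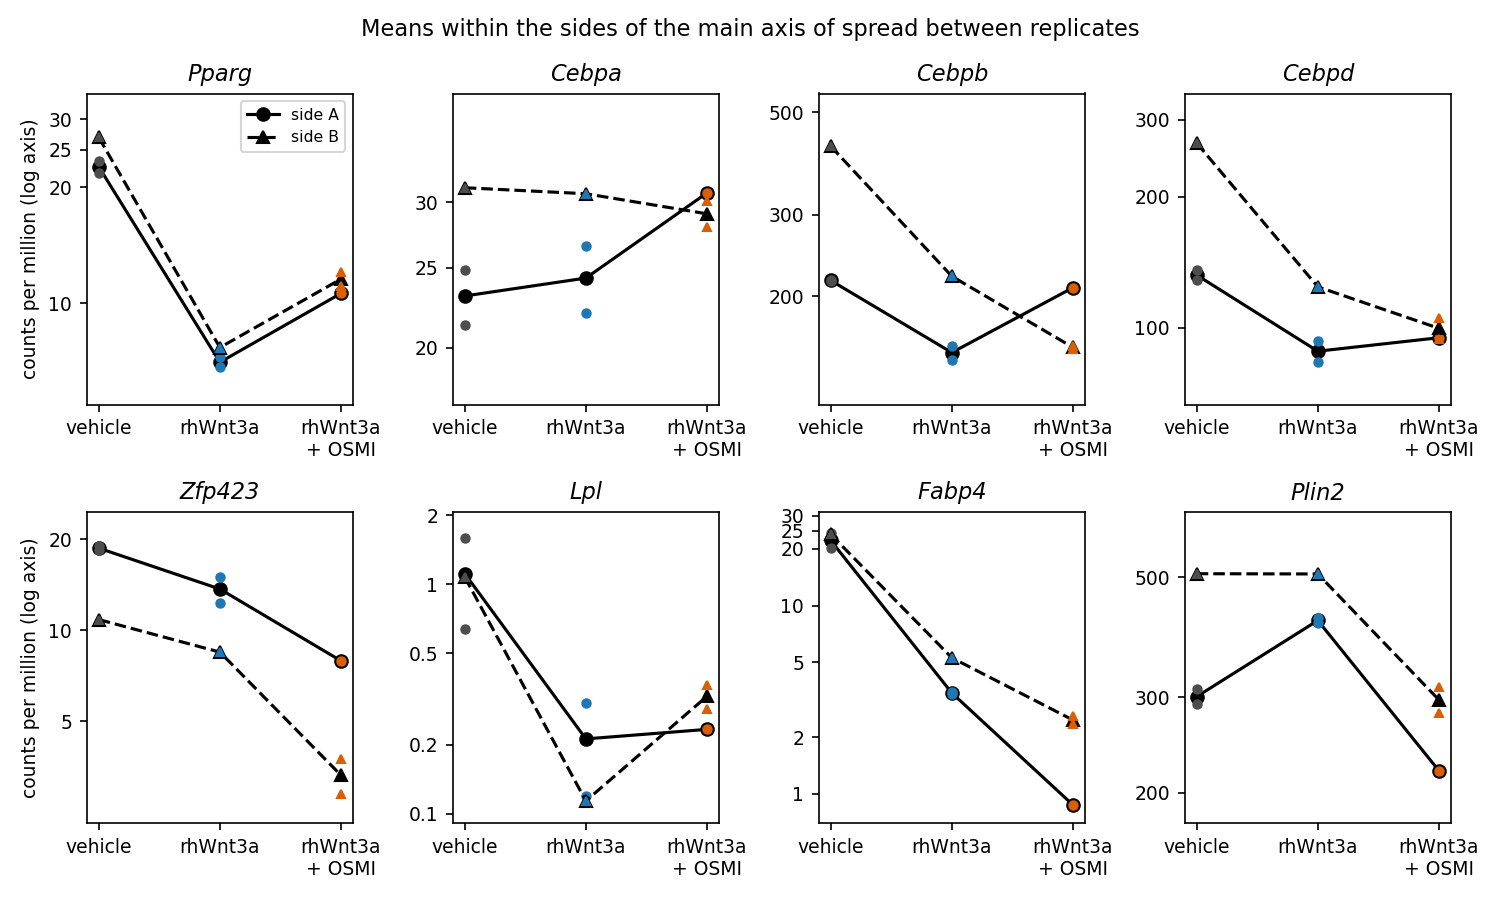
Normalized counts (CPM, log axis, range differing between genes) of the 8 tested genes by group, with the libraries of side A (small circles) and side B (small triangles) and their means (black symbols, solid line for A, dashed for B). *Pparg* has the same shape on both sides, with log2 ratios of -1.68 and -1.81 for rhWnt3a against vehicle, while *Cebpb* with OSMI against rhWnt3a has log2 ratios of 0.47 on side A and -0.51 on side B, each with a single library in an arm.

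Against vehicle, cells with rhWnt3a and OSMI had less *Pparg*, *Fabp4*, *Zfp423* and *Lpl*, and no member rose in edgeR, in DESeq2 or at an unadjusted p. *Fabp4* was the furthest removed, 11.7-fold below vehicle, and *Pparg* was 2.14-fold below. The 4 of 8 members that fell compare with 9.34% of tested genes that fell, 4.84% that rose and 14.2% called in either direction, the last being 22.8% at an unadjusted p. Groups did not overlap for 6 members, all lower, against 19.4% of tested genes. Both counts again include *Lpl*, which was tested only through its vehicle libraries and adds no support to them. This comparison shares its vehicle libraries with the comparison of rhWnt3a alone, so the values of both are given side by side and are not independent.

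The log2 fold change of *Pparg* was -1.10 ± 0.14 (edgeR adjusted p = 0.000835), next to -1.73 with rhWnt3a alone, and that of *Fabp4* was -3.55 ± 0.34 (adjusted p = 0.000166), next to -2.49. Both calls were kept in all 19 alternatives, from -1.15 to -1.01 and from -3.79 to -3.20. Within sides A and B, *Pparg* gave -1.09 and -1.22 and *Fabp4* gave -4.67 and -3.28.

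*Zfp423* fell by 1.73 ± 0.39 on the log2 scale (edgeR adjusted p = 0.0149), next to -0.43 with rhWnt3a alone. Within sides A and B the log2 ratios were -1.24 and -1.71, and without the libraries that stood apart, where side and OSMI cannot be told apart, the value was -2.54. Leaving out vehicle 1 or 2 gave -1.56 and -1.58 (adjusted p = 0.062 and 0.059), and leaving out rhWnt3a with OSMI 1 or 2 gave -1.53 and -1.42 (adjusted p = 0.0673 and 0.0573), so none of these 4 passed. Over all alternatives the adjusted p ran from 4.19e-10 to 0.0673.

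*Lpl* fell by 1.88 ± 0.49 on the log2 scale (edgeR adjusted p = 0.029, range over the alternatives 0.0135 to 0.116). Its call was lost without vehicle 1 (-1.51, adjusted p = 0.116), vehicle 3 (-1.90, adjusted p = 0.0544), or rhWnt3a with OSMI 1, 2 or 3 (-2.02, -1.83 and -1.74, adjusted p = 0.0737, 0.0944 and 0.0834). With 4 to 6 counts in each library with OSMI, its level there was only just above the floor.

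*Cebpb* and *Cebpd* gave -0.72 ± 0.28 and -0.85 ± 0.27 (edgeR adjusted p = 0.117 and 0.062), and each library with OSMI was below each vehicle library for both. In DESeq2 *Cebpd* passed (adjusted p = 0.0217) and *Cebpb* did not (adjusted p = 0.0801). Over the alternatives the adjusted p of *Cebpd* ran from 6.78e-05 to 0.158. Within sides A and B the log2 ratios were -0.05 and -1.45 for *Cebpb* and -0.48 and -1.41 for *Cebpd*. Without the libraries that stood apart *Cebpb* gave -0.52 (adjusted p = 1.86e-06, range over the alternatives 1.86e-06 to 0.368) and *Cebpd* -0.45, but side and OSMI cannot be told apart in these values. *Plin2* gave -0.45 ± 0.23 (adjusted p = 0.219), with -0.45 and -0.77 within the sides and, with side and OSMI again not to be told apart, -0.06 without those libraries. *Cebpa* gave 0.20 ± 0.17 (adjusted p = 0.472).

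Across the 8 tested members the median log2 fold change was -0.76 with rhWnt3a against vehicle, -0.02 with OSMI added and -0.97 for both against vehicle, where the medians of all tested genes were 0.04, -0.01 and -0.01. With OSMI the mean FPKM ran from 114 ± 22.7 for *Cebpb* over 75.8 ± 12.1 for *Plin2*, 25.8 ± 1.43 for *Cebpd*, 11.1 ± 0.71 for *Cebpa* and 3.74 ± 0.20 for *Pparg* to 0.86 ± 0.49 for *Zfp423* and 0.42 ± 0.20 for *Fabp4*, where *Zfp423* and *Fabp4* overlapped in their libraries. Here too, the order of *Plin2* and *Cebpb*, and that of *Zfp423* and *Fabp4*, depends on the gene length used. With rhWnt3a alone *Plin2* (125 ± 15.9) and *Cebpb* (114 ± 27.7) overlapped on this scale, and so did *Pparg* (2.40 ± 0.16) and *Zfp423* (2.09 ± 0.56). *Cebpa*, close to *Pparg* in vehicle-treated cells, was thus at 9.85 ± 1.70 FPKM against 2.40 with rhWnt3a. Deviations from the group means of log2 CPM correlated among some members over the 9 libraries (Pearson's r of 0.94 for *Pparg* with *Plin2*, 0.90 for *Cebpb* with *Cebpd* and -0.88 for *Zfp423* with *Fabp4*), which is a description over libraries that also share the axis of spread. Over all 9 libraries, the genes most like *Pparg* in log2 CPM were *Cavin2* (r = 0.993), *Traf5* (0.991) and *H2-K1* (0.989), the last of a family of near-identical genes and so uncertain. For *Cebpa* they were *Phlda1* (0.946), *Zdhhc7* (0.946) and *Prkcsh* (0.939).

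Other regulators of the program moved in part. Counts of this and the following lists stand beside these shares of all tested genes. With rhWnt3a 5.86% fell and 2.92% rose, and with OSMI over rhWnt3a 3.05% fell and 1.69% rose. With both agents against vehicle 9.34% fell and 4.84% rose. Of 18 further genes known to favor adipogenesis, 15 were tested: 2 fell with rhWnt3a (*Nr1h3*, -1.63, and *Stat5a*, -0.94), 2 rose with OSMI over rhWnt3a (*Klf5*, 1.18, and *Klf4*, 0.63), and against vehicle with both agents 3 rose and 3 fell. *Nr1h3*, the gene of the lipid sensor LXRα, went from 18.5 ± 0.59 CPM with vehicle to 5.99 ± 0.41 with rhWnt3a and 5.00 ± 0.28 with OSMI added. *Klf5*, a factor that acts on the *Pparg* promoter early in adipogenesis, stood at 10.2 ± 1.03 and 9.06 ± 0.64 CPM and then at 20.5 ± 2.41 with OSMI. Against vehicle *Klf5*, *Klf9* and *Tle3* rose by 1.01, 0.79 and 0.59, and *Nr1h3*, *Klf15* and *Stat5a* fell by 1.88, 1.54 and 0.66 on the log2 scale. *Rxra*, the gene of the PPARγ partner RXRα, gave -0.21, 0.57 and 0.36 in the 3 comparisons without a call, and neither *Srebf1* (-0.13, 0.00 and -0.13) nor *Ebf1* (-0.50, 0.36 and -0.13) was called. The median of the list was -0.26, 0.20 and -0.07.

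Of 18 genes known to restrain adipogenesis, 16 were tested, and 1 rose and 4 fell with rhWnt3a, 0 were called with OSMI over rhWnt3a in edgeR (1 at an unadjusted p under 0.05 and 0 in DESeq2), and 1 rose and 3 fell against vehicle with both. *Wnt5a*, a Wnt ligand, rose by 1.08 with rhWnt3a and by 0.68 with both agents on the log2 scale. *Trib2*, *Sox9*, *Klf2* and *Insig1* fell with rhWnt3a by 1.05, 1.0, 0.81 and 0.69, and with both agents *Trib2*, *Sox9* and *Klf2* fell by 1.36, 1.13 and 1.12. The preadipocyte factor gene *Dlk1* had 0 counts in all 9 libraries, which allows at most the floor of 3 counts in each. Medians were -0.35, 0.11 and -0.11. Lower values were thus found among genes that favor and genes that restrain the program.

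Of 19 genes of lipid droplets and lipolysis, 12 were tested, and those called all fell: 2 with rhWnt3a, 2 with OSMI over rhWnt3a and 4 against vehicle with both. *Plin4*, a droplet coat gene, went from 201 ± 65.4 CPM with vehicle to 36.1 ± 7.99 with rhWnt3a and 46.1 ± 7.93 with OSMI added, a log2 fold change of -2.48 and -2.13 against vehicle. *G0s2*, which encodes an inhibitor of the lipase ATGL, went from 70.8 ± 20.0 to 25.2 ± 6.60 and 10.9 ± 3.68 CPM. *Plin3* and *Cav1* fell with OSMI over rhWnt3a by 0.62 and 0.75 on the log2 scale, and by 0.64 and 0.65 against vehicle. Medians were -0.02, -0.15 and -0.45.

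Of 24 genes of fatty acid uptake and triglyceride synthesis, 20 were tested, and 2 rose and 2 fell with rhWnt3a, 0 were called with OSMI over rhWnt3a in edgeR (5 at an unadjusted p under 0.05 and 2 in DESeq2), and 3 rose and 5 fell against vehicle with both. With rhWnt3a, *Gpam*, the gene of the first enzyme of triglyceride synthesis, and *Vldlr* rose by 0.91 and 0.60, while *Angptl2* and the fatty acid transporter gene *Slc27a1* fell by 0.98 and 0.88 on the log2 scale. With both agents *Slc27a1*, *Angptl2*, *Fabp5*, *Agpat2* and *Lpin3* fell by 1.48, 1.43, 1.43, 0.93 and 0.88, and *Gpam*, *Lpin2* and *Acsl1* rose by 1.05, 0.73 and 0.53. *Angptl4*, an inhibitor of the lipase encoded by *Lpl*, was not called (-0.22, -0.39 and -0.60), and *Gpihbp1* had 0 counts in every library. Medians were 0.02, -0.23 and -0.04.

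Of 12 adipokine and receptor genes, 5 were tested, and 2 fell with rhWnt3a, 0 were called with OSMI over rhWnt3a in edgeR (2 at an unadjusted p under 0.05 and 0 in DESeq2), and 1 rose and 2 fell with both against vehicle. *Apln*, the gene of apelin, fell by 1.20 with rhWnt3a and by 1.97 with both, and *Nampt* by 0.56 and 0.64, while *Adipor2* rose by 0.56 with both. Medians were -0.08, -0.08 and -0.24. Of 10 markers of brown and beige fat only 2 were tested, and *Dio2*, the gene of the deiodinase that activates thyroid hormone, rose by 2.50 with rhWnt3a, fell by 1.20 with OSMI over rhWnt3a and remained 1.31 above vehicle on the log2 scale.

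**Figure D4:**
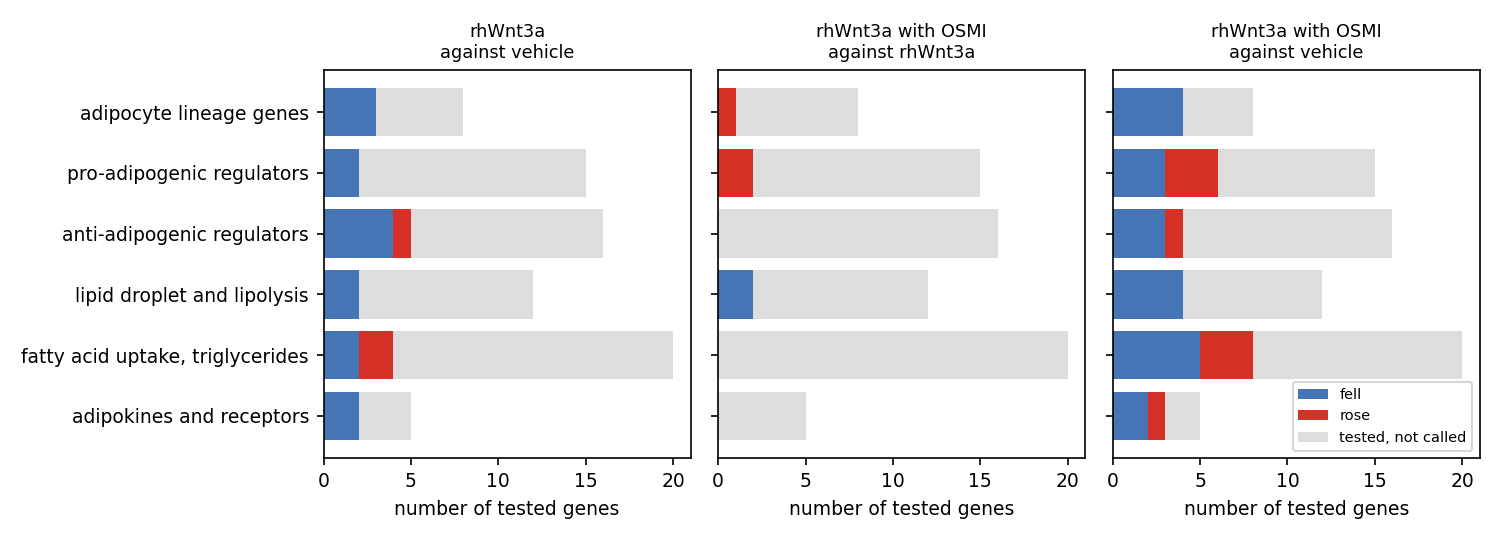
Number of tested genes that fell (blue), rose (red) or were not called (grey) in the adipocyte lineage genes and in 5 further lists, for the 3 comparisons. With rhWnt3a 3 of 8 lineage genes, 2 of 15 pro-adipogenic and 4 of 16 anti-adipogenic regulators fell, and with OSMI added to rhWnt3a few genes of any list were called. Of all tested genes 5.86% fell with rhWnt3a, and 4.74% were called with OSMI added to rhWnt3a.

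Markers of the line's own stromal type and of other cell types were counted in the same way. Of all tested genes 5.86%, 3.05% and 9.34% fell in the 3 comparisons. Of 15 stromal and marrow progenitor markers 13 were tested, and 4 fell with rhWnt3a (*Cxcl12*, -2.31, *Kitl*, -2.16, *Ly6a*, -1.53, and *Vcam1*, -0.93), 3 with OSMI over rhWnt3a (*Nt5e*, -2.18, *Ly6a*, -1.73, and *Vcam1*, -0.95) and 6 against vehicle with both (*Ly6a*, *Nt5e*, *Vcam1*, *Cxcl12*, *Kitl* and *Col1a1*, from -3.26 to -1.31). None rose, and the summed level was 18851 to 25490, 15255 to 18370 and 8715 to 16513 CPM in the 3 groups. Of 12 osteoblast markers 7 were tested, and 0 were called with rhWnt3a in edgeR (1 at an unadjusted p under 0.05 and 1 in DESeq2). *Postn* fell with OSMI over rhWnt3a (-1.72), and *Postn*, *Spp1* and *Col1a1* fell with both agents against vehicle (-2.67, -1.46 and -1.31), with sums of 15106 to 19577, 10653 to 11775 and 4383 to 8292 CPM. The 10 macrophage markers summed to 24.4 to 26.7, 16.2 to 17.6 and 15.02 to 18.6 CPM, with 4 tested and 1 fall, of *Lyz2* with both agents against vehicle (-1.65). The 10 endothelial markers summed to 2.09 to 2.99, 0.608 to 0.852 and 0.846 to 0.975 CPM, and *Emcn*, the single one tested, had 19 to 34 counts with vehicle, 0 with rhWnt3a and at most 2 with OSMI added. *Emcn* passed the count filter only through its vehicle libraries, so a fall was favored in advance for it. Sums of all 4 lists were lower in every treated library than in any vehicle library. The stromal and osteoblast lists share *Col1a1*, and a sum is carried by its most abundant genes. With rhWnt3a 0 of 7 osteoblast and 0 of 4 macrophage markers were called, so the sums are descriptions only. The part of these lists in the values of the adipocyte lineage genes was not tested.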

How the data were processed

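Poly-T selected messenger RNA of ST2 cells was sequenced by a commercial provider, and the submitters' processing notes name CASAVA, fastp, HISAT2 2.0.5, featureCounts 1.5.0-p3 and the build mm10. The annotation and the strand setting are not given in the sources used here. The authors deposited a single table with the count of reads per gene and library, not normalized. The deposited FPKM values scale these counts by the gene length in the same table, which the authors deposited too, and by library size. Columns with the authors' group means, fold changes and p-values were not used, and 0 columns of single libraries were left out.

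Counts were fitted in R 4.3.3 with edgeR 4.0.16 (TMM scaling, glmQLFit on all 9 libraries with the 3 groups and no covariate, two-sided glmQLFTest per pair of groups) after filterByExpr (minimum count 10, minimum total 15), with Benjamini-Hochberg adjustment over the 14004 tested genes. Calls required an adjusted p below 0.05 together with an absolute log2 fold change above 0.5, the latter as in the study's DESeq2 analysis. CPM used TMM-scaled totals, and 3 counts per library was taken as the floor, which covers counting error only. Totals were 16135898 to 17583945 counts. FPKM served only to compare levels between genes, and list sums and medians are descriptions. Alternatives were DESeq2 1.42.0, RLE scaling, other count filters, a fold threshold of 1, unadjusted p, a replicate block, only the 6 libraries compared, each library left out, and the 3 libraries that stood apart left out. The fold threshold of 1 and the unadjusted p reused the main fit, and a call cannot be lost at an unadjusted p. Side of the first axis as a term and within-side ratios were added after seeing the data. No pair of libraries in a group agreed within sampling noise. Gene models came from GENCODE M21 and copies were searched with BLAST 2.17.0 at 97% identity over 100 bases.

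The members and the further lists (regulators that favor or restrain adipogenesis, lipid droplets, fatty acids and triglycerides, adipokines, brown fat, stroma, osteoblasts, macrophages, endothelium) were chosen with earlier results of these data known. All members are named, together with up to 6 called genes per list and comparison, 10 genes given whatever their values (*Dlk1*, *Plin1*, *Lep*, *Cfd*, *Srebf1*, *Rxra*, *Klf5*, *Ebf1*, *Angptl4* and *Gpihbp1*), and for *Pparg* and *Cebpa* the 3 genes of highest correlation. *Cidec* and the macrophage and endothelial genes named for their low counts come from the marker lists. A member of the adipokine list is not reported here, and it was left out of that list's counts and medians.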

Additional observations from a re-analysis of the deposited data

How the results depend on the processing

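Among the members, the falls of *Pparg* and *Fabp4* against vehicle kept their call in all 19 alternatives with either treatment, though a call cannot be lost at an unadjusted p. The number of members called was 3 for rhWnt3a against vehicle, 1 for rhWnt3a with OSMI against rhWnt3a and 4 for rhWnt3a with OSMI against vehicle. For rhWnt3a against vehicle it became 5 with no count filter, 5 without the libraries that stood apart and 5 at an unadjusted p, and 2 to 3 when single libraries were left out. For rhWnt3a with OSMI against rhWnt3a it became 4 in DESeq2, 3 with no count filter, 0 with the replicate block, 0 with only the 6 libraries compared, 2 without the libraries that stood apart, 4 with the side as a term, 0 at a log2 fold change beyond 1 and 4 at an unadjusted p, and 0 to 2 on leaving out single libraries. For rhWnt3a with OSMI against vehicle it became 5 in DESeq2, 6 with no count filter, 5 without the libraries that stood apart and 6 at an unadjusted p. In that comparison it was 7 with the side as a term and 2 to 4 on leaving out single libraries. The side and the libraries that stood apart were read from the same counts, so p-values of both these fits are too small. Without the libraries that stood apart, side and OSMI cannot be told apart in both comparisons of OSMI.

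Of all tested genes, 1230, 664 and 1986 were called in these 3 comparisons, and 809, 233 and 1297 with the replicate block, 2557, 1789 and 3351 without the libraries that stood apart, 2033, 4033 and 4670 with the side as a term, 796, 380 and 1118 at a log2 fold change beyond 1, 2155, 2271 and 3186 at an unadjusted p, and 716 to 1506, 203 to 764 and 1218 to 2328 without single libraries. For rhWnt3a with OSMI against rhWnt3a the count was also 1232 in DESeq2, 1481 with no count filter and 345 with only the 6 libraries compared. The causes were not tested.

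Signs changed only for members with a log2 fold change near 0. *Cebpa* with rhWnt3a against vehicle was -0.087 without vehicle 1 or rhWnt3a 2, within a range from -0.087 to 0.20 on leaving out single libraries. *Cebpb* with OSMI against rhWnt3a was 0.00044 with no count filter, 0.018 with at least 10 counts in every library, 0.0055 with only the 6 libraries, 0.033 without the libraries that stood apart, and -0.17 to 0.22 without single libraries. *Cebpd* in that comparison was 0.17 without the libraries that stood apart, and -0.14 to 0.17 without single libraries. Same-numbered replicates correlated between -0.49 and 0.44 in their deviations from the group means, so the numbers did not pair the libraries, and the block cost *Pparg* its call for OSMI against rhWnt3a (0.63, adjusted p = 0.122, range over the alternatives 0.00087 to 0.144) and no other member call. For *Lpl*, *Cd36* and *Adipoq* the depth was limiting: *Lpl* could not be fitted with at least 10 counts in every library, and changes in the other two were not detectable.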
